A study of Mus musculus with 7 samples.

Results

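The 10 genes described here encode actin or proteins that act on actin. The group is named for dendritic spines, the small protrusions that carry most excitatory synapses of hippocampal neurons. Its members are Cotl1, Actb, Actg1, Cfl1, Cfl2, Pfn1, Pfn2, Dbn1, Limk1 and Synpo, and they are 10 of the 22248 genes in the gene count table. Cotl1 was picked for its measured level, which was low in each AM6545 library, so its difference between the groups is given as a description and is not tested. The other 9 were taken for what their proteins do. All 10 passed the filter on low counts, which 14654 genes passed.

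The libraries came from synaptoneurosomes of the hippocampus, a fraction of resealed synaptic particles that keeps presynaptic endings joined to their postsynaptic partners. The mice were wild-type C57Bl/6J females, and none of the labels names a transgene or mutation. One group received AM6545, a CB1 cannabinoid receptor antagonist that acts mainly outside the brain, sub-chronically and gave 4 libraries (replicates B, D, E and F). The other group received vehicle and gave 3 libraries (replicates B, D and E). Dose, length of treatment, age and how many mice went into a library are not given in the sources used here. Nothing states that the libraries came from separate mice, so p-values measure the spread between libraries, which may be technical.

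Actin exists as monomers and as filaments, and the balance between them sets the shape and size of a spine. Profilins load monomers with ATP and feed them to growing filaments, and cofilins sever old filaments. LIM kinase 1, encoded by Limk1, phosphorylates cofilin and so switches it off. Drebrin, encoded by Dbn1, binds along spine filaments and slows their turnover, and synaptopodin, encoded by Synpo, is tied to the spine apparatus, a stack of smooth endoplasmic reticulum. Coactosin-like 1, encoded by Cotl1, is a small filament-binding protein of the same fold family as cofilin.

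Of the members, 6 form 3 pairs of related genes, and their sequences are shown because counts can be divided between members of a pair only where the letters differ. Coding sequences were built from the transcripts of GENCODE release M21, build GRCm38. The first 90 coding bases follow for each gene, 5′ to 3′, with the bases that differ from the partner in capitals.
Actb: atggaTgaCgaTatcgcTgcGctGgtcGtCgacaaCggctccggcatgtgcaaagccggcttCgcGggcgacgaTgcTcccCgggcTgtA
Actg1: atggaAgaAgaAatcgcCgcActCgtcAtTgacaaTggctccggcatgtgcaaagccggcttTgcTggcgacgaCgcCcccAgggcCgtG
Cfl1: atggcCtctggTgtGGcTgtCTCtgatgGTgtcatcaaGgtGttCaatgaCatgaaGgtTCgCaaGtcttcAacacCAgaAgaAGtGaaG
Cfl2: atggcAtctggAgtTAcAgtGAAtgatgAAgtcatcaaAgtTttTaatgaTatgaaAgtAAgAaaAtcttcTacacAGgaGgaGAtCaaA
Pfn1: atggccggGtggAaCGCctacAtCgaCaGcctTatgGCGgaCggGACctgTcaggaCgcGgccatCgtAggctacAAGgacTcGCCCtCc
Pfn2: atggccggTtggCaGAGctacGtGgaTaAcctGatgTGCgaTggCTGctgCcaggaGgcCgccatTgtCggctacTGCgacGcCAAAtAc

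In these stretches 16 bases differed between the actins, 27 between the cofilins and 31 between the profilins. Over the whole coding sequence, with no gap in any pair, the actins were 88.7% identical (128 mismatches in 1128 bases, 375 codons). The cofilins were 71.5% identical (143 mismatches in 501 bases, 166 codons) and the profilins 61.5% identical (163 mismatches in 423 bases, 140 codons). The share of 31-base windows of the most abundant transcript that also occur in transcripts of another gene measures how far reads could be assigned elsewhere. It was 27.8% for Actb, where Lrrc58 alone held 22.7% and Actg1 and the muscle actins held others. It was 6.14% for Actg1, mostly windows of Actb, and 17.7% for Cfl1, all of them held by Snx32. For Pfn2 and Limk1 it was 0.346% and 0.303%. No window was shared for Cotl1, Cfl2, Pfn1, Dbn1 or Synpo. By this measure the counts of Actb and Cfl1 are the least certain of the 10.

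Compared per length, as TPM (transcript counts divided by transcript length and scaled to a common total), the members covered more than 2 orders of magnitude. Actb ranked 42nd and Limk1 7446th of 22173 genes by mean TPM over the 7 libraries. Actb had a mean level of 2359 ± 117 TPM in AM6545 (SD, n = 4) and 1991 ± 540 in vehicle (SD, n = 3). The next levels in AM6545 and vehicle were 1753 ± 239 and 1555 ± 263 TPM for Actg1, and 1411 ± 119 and 1445 ± 145 for Cfl1. Actb exceeded Actg1 in 7 of 7 libraries by 1.32 times, but their ranges over libraries overlapped, and Actg1 exceeded Cfl1 in only 5 of 7. The transcript lengths of Actb and Actg1, weighted by counts, were 1657 and 1917 bases. In counts not divided by length, Actb took 49.2% of both actins in AM6545 replicate B and 45.8% in vehicle replicate B. In each of the other libraries it took more than Actg1. The other steps of the order were Cfl1 over Pfn1 (2.04 times), Pfn1 over Pfn2 (1.64), Pfn2 over Dbn1 (1.87), Dbn1 over Cfl2 (2.21), Cfl2 over Cotl1 (2.45) and Cotl1 over Synpo (2.46), and in each of these the ranges did not overlap. Synpo exceeded Limk1 by 1.31 times in 7 of 7 libraries, with overlapping ranges. Pfn1 stood at 679 ± 60.4 and 728 ± 44.7 TPM, and Pfn2 at 445 ± 47.5 and 404 ± 57.3 TPM, in AM6545 and vehicle. Cotl1 stood at 33.5 ± 2.66 and 53.7 ± 10.1 TPM, and Synpo and Limk1 lay below 20 TPM in the mean of either group.

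Across the 9 members chosen by function, no difference between AM6545 and vehicle passed edgeR's quasi-likelihood test at an adjusted p under 0.05, the rule that called 0.00682% of all genes tested. At an unadjusted p under 0.05, 0 of the 9 were higher in AM6545, against 5.86% of all genes, and 0 were lower, against 8.7%. The groups did not overlap for 0 of the 9 in either direction, where 6.63% of all genes had each AM6545 library above each vehicle library and 7.19% had each below. The fitted difference was above 0 for 6 of the 9 and below 0 for 3, where 48.6% of all genes lay below 0. It ran from -0.22 to 0.08 on the log2 scale, with a median of 0.06 beside 0.01 for all genes tested. Adjusted p ran from 0.384 to 0.916, and the test was adjusted over all genes. In 19 alternative settings none of the 9 passed the threshold, and the smallest adjusted p of any of them was 0.154, for Pfn1.

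**Figure D1:**
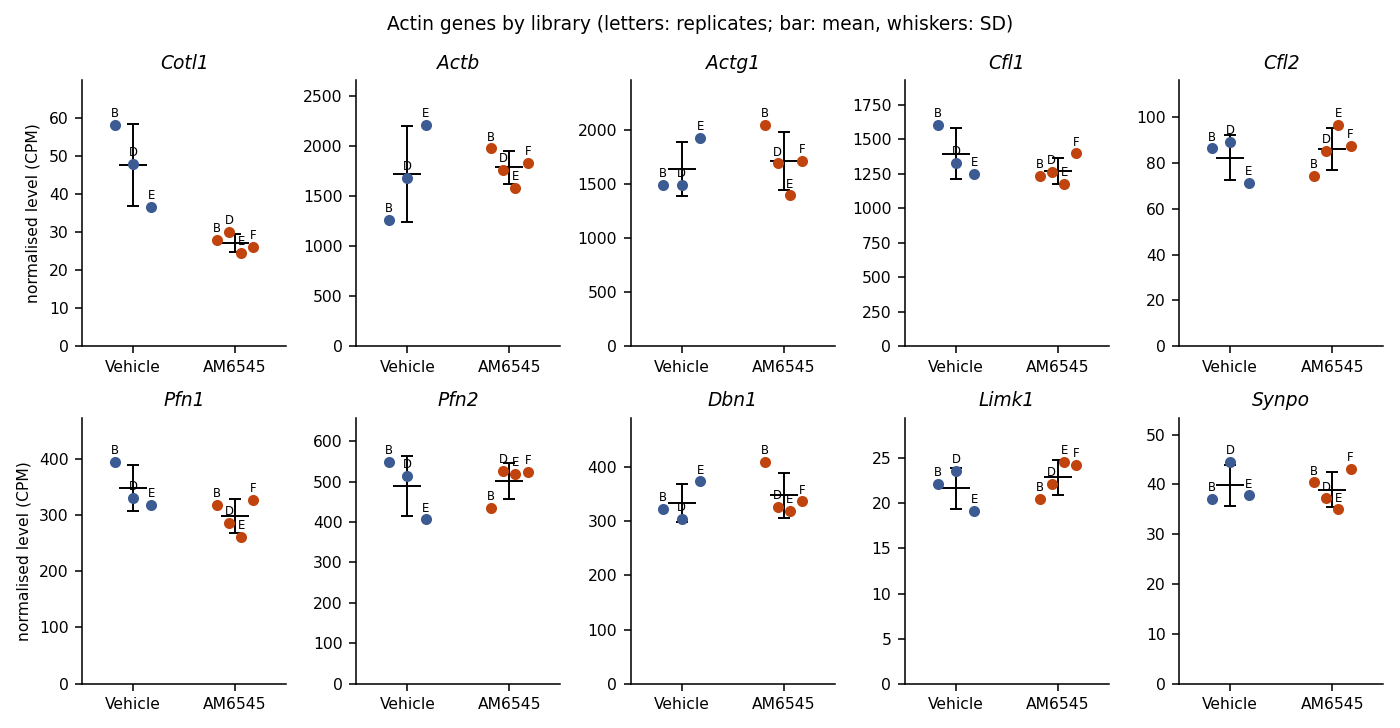
Normalised level (CPM, counts scaled by TMM, linear axis from 0) of the 10 genes in each library, with vehicle in blue and AM6545 in orange; letters name the replicates, bars the group mean and whiskers the SD (n = 3 and 4). The 2 groups are apart only for Cotl1, which was picked for that, with AM6545 at 24.6 to 30.0 CPM and vehicle at 36.6 to 58.2 CPM.

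Actb encodes cytoplasmic beta-actin (identifier ENSMUSG00000029580.15, chr5:142903115-142906754, minus strand, GRCm38). Its normalised level, in counts scaled by TMM so that libraries compare (CPM), was 1978, 1763, 1584 and 1834 CPM in AM6545 replicates B, D, E and F, and 1261, 1687 and 2217 CPM in vehicle replicates B, D and E. The 3 vehicle libraries spanned a wider range than the 4 AM6545 libraries, which all lay inside it. The means were 1790 ± 163 (SD, n = 4) and 1722 ± 479 CPM (SD, n = 3), a log2 fold change of 0.06 (SE 0.16, edgeR adjusted p 0.89). Vehicle replicate B was the lowest and replicate E the highest of all 7. Without replicate B the log2 fold change was -0.12, and without replicate E it was 0.28.

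Actg1 encodes cytoplasmic gamma-actin (ENSMUSG00000062825.16, chr11:120345690-120348542, minus strand) and was present at 2046, 1688, 1392 and 1708 CPM in AM6545 and 1491, 1489 and 1924 CPM in vehicle, in the same order of replicates. The highest and the lowest of the 7 values were both from AM6545, replicates B and E. The group means of 1708 ± 267 (SD, n = 4) and 1635 ± 250 CPM (SD, n = 3) differed by 0.06 on the log2 scale (SE 0.14, edgeR adjusted p 0.854). The share of Actb in the counts of both actins, which does not depend on scaling between libraries, was 49.2, 51.1, 53.2 and 51.8% in AM6545. In vehicle it was 45.8, 53.1 and 53.5%. Beta-actin thus took close to equal parts of the counts with gamma-actin, and vehicle replicate B was the library with the smallest share. The means were 51.3% ± 1.70 (SD, n = 4) and 50.8% ± 4.34 (SD, n = 3), a difference of 0.49 points (two-sided exact permutation p 0.857, also after adjustment over the 3 pairs). With 35 ways of dividing 7 libraries, the smallest p possible is 0.0286. Per length, the share was 57.5% ± 2.28 and 55.7% ± 3.56 (exact permutation p 0.457).

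Cofilin 1, the main cofilin of non-muscle cells, is encoded by Cfl1 (ENSMUSG00000056201.9, chr19:5490455-5495201, plus strand). Cfl1 had 1235, 1267, 1177 and 1399 CPM in AM6545 and 1608, 1330 and 1252 CPM in vehicle. The highest value was that of vehicle replicate B, and the other 2 vehicle libraries lay among the AM6545 libraries. Means were 1269 ± 94.0 (SD, n = 4) and 1397 ± 187 CPM (SD, n = 3), with a log2 fold change of -0.14 (SE 0.12, edgeR adjusted p 0.584), which was -0.02 without vehicle replicate B. Exons of Snx32 on the opposite strand overlap Cfl1, and use of strand in the counting is not given in the sources used here, so reads of the 2 genes there may not be told apart.

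Cfl2, which encodes the cofilin typical of muscle (ENSMUSG00000062929.9, chr12:54858809-54862877, minus strand), had 74.4, 85.3, 96.7 and 87.4 CPM in AM6545 and 86.3, 89.3 and 71.2 CPM in vehicle. These values interleaved, with means of 86.0 ± 9.16 (SD, n = 4) and 82.3 ± 9.70 CPM (SD, n = 3). The log2 fold change was 0.06 (SE 0.12, edgeR adjusted p 0.821), and it was -0.10 once the dependence of counts on GC content and transcript length was removed library by library. Cfl2 has the lowest GC content of the members, 38.5%, where the other 9 lie between 50.5 and 59.0%. Cfl1 made up 94.3, 93.7, 92.4 and 94.1% of the counts of both cofilins in AM6545 and 94.9, 93.7 and 94.6% in vehicle. The difference of -0.779 points did not pass the exact permutation test (p 0.257, adjusted 0.386, n = 4 and 3), and it was -0.37 points without AM6545 replicate E.

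Limk1, encoding the kinase that phosphorylates both cofilins (ENSMUSG00000029674.14, chr5:134656039-134688598, minus strand), was at 20.5, 22.2, 24.6 and 24.3 CPM in AM6545. In vehicle it was at 22.2, 23.6 and 19.2 CPM. The ranges overlapped, with AM6545 replicates E and F above the vehicle libraries and vehicle replicate E below the AM6545 libraries. Means were 22.9 ± 1.91 (SD, n = 4) and 21.7 ± 2.25 CPM (SD, n = 3), with a log2 fold change of 0.08 (SE 0.11, edgeR adjusted p 0.765).

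Profilin 1, found in nearly all cells, is encoded by Pfn1 (ENSMUSG00000018293.5, chr11:70651850-70654644, minus strand). Of the 9 tested members Pfn1 had the smallest unadjusted p. It was present at 318, 287, 262 and 327 CPM in AM6545 and 395, 331 and 319 CPM in vehicle. The AM6545 libraries B, D and E were below the lowest vehicle library, and replicate F lay between vehicle replicates E and D. Means were 299 ± 29.7 (SD, n = 4) and 349 ± 41.0 CPM (SD, n = 3), a log2 fold change of -0.22 (SE 0.11) with an unadjusted p of 0.0698 and an adjusted p of 0.384 by edgeR. Corrected for GC content and length it was 0.09, so its sign rests on that choice. Left without vehicle replicate B it was -0.12, and without vehicle replicate E it was -0.28 with an unadjusted p of 0.0323 and an adjusted p of 0.154 by edgeR.

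Pfn2, encoding the profilin made mainly in neurons (ENSMUSG00000027805.17, chr3:57841895-57848079, minus strand), was at 435, 527, 519 and 524 CPM in AM6545 and 549, 515 and 407 CPM in vehicle. Replicate B was the low library of AM6545 and replicate E that of vehicle. Means of 501 ± 44.0 (SD, n = 4) and 490 ± 74.3 CPM (SD, n = 3) gave a log2 fold change of 0.03 (SE 0.12, edgeR adjusted p 0.916). Pfn1 took 42.2, 35.3, 33.5 and 38.4% of the counts of both profilins in AM6545 and 41.9, 39.1 and 44.0% in vehicle. AM6545 replicates D, E and F were below the 3 vehicle libraries, and replicate B was inside their range. The means of 37.4% ± 3.81 (SD, n = 4) and 41.7% ± 2.41 (SD, n = 3) differed by -4.30 points, with an exact permutation p of 0.143 (adjusted 0.386). Per length Pfn1 was the larger partner, with 60.4% ± 4.13 and 64.4% ± 2.19 of both (exact permutation p 0.2).

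**Figure D2:**
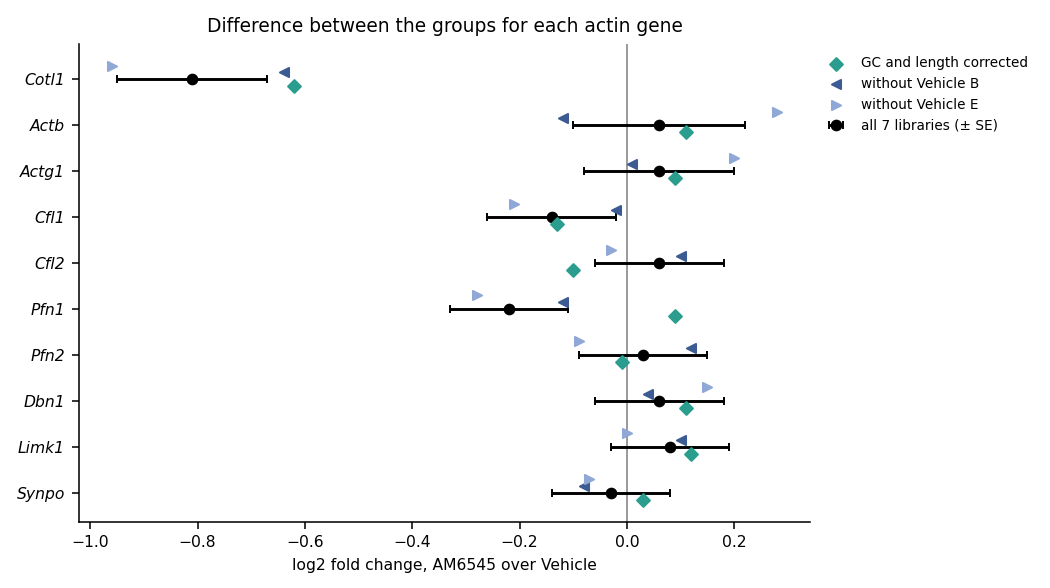
Difference between AM6545 and vehicle for each gene as a log2 fold change from edgeR with all 7 libraries (black, ± SE), beside the values corrected for GC content and length (green diamonds) and the values without vehicle replicate B or E (blue triangles). For Actb, Cfl2, Pfn1, Pfn2 and Synpo at least 1 of these 3 alternatives lies on the other side of 0, while the 4 values of Cotl1 run from -0.96 to -0.62 and the 4 of Cfl1 from -0.21 to -0.02.

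Drebrin is the product of Dbn1 (ENSMUSG00000034675.18, chr13:55473429-55488111, minus strand). Dbn1 was at 410, 327, 320 and 337 CPM in AM6545 and 323, 305 and 374 CPM in vehicle. AM6545 replicate B and vehicle replicate E were the 2 highest, and the rest lay close together. Means were 348 ± 41.9 (SD, n = 4) and 334 ± 36.1 CPM (SD, n = 3), with a log2 fold change of 0.06 (SE 0.12, edgeR adjusted p 0.825).

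Drebrin has an adult form, drebrin A, that carries an insert which the embryonic form, drebrin E, lacks, and the exon for an insert of that kind is shown because it separates the Dbn1 transcripts. It is exon 11 of Dbn1-201, 138 bases or 46 codons at chr13:55476636-55476773 on the minus strand of GRCm38, and Dbn1-203 is identical to Dbn1-201 but for its absence.
Dbn1 exon 11: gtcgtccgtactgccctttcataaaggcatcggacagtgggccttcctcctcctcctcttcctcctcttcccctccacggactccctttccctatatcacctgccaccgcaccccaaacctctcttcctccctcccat

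Dbn1-201, with 706 codons and this exon, took 80.6, 77.2, 77.9 and 79.2% of the Dbn1 counts in AM6545 and 81.0, 81.2 and 79.6% in vehicle. Dbn1-202, with 661 codons and without the exon, took 18.3, 20.6, 20.1 and 19.2% in AM6545 and 17.7, 17.4 and 18.9% in vehicle. Dbn1-203, with 660 codons, had 0 counts in all 7 libraries. The form with the exon was thus the larger in each library. The level of Dbn1-201 differed by 0.04 on the log2 scale (SE 0.12, edgeR adjusted p 0.956) and that of Dbn1-202 by 0.18 (SE 0.11, edgeR adjusted p 0.711).

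Synpo (ENSMUSG00000043079.18, chr18:60593973-60660142, minus strand) had 40.4, 37.2, 35 and 43.1 CPM in AM6545 and 37.1, 44.5 and 37.8 CPM in vehicle. The groups overlapped, at 38.9 ± 3.53 (SD, n = 4) and 39.8 ± 4.11 CPM (SD, n = 3), and the log2 fold change was -0.03 (SE 0.11, edgeR adjusted p 0.907). Synpo-211, with 690 codons, held most of the Synpo counts in each library. Synpo-202, which also has 690 codons, averaged 6.38% in AM6545 and 15.8% in vehicle. Synpo-211 took 83.0, 68.5, 84.2 and 87.0% in AM6545 and 77.9, 83.5 and 50.4% in vehicle. Synpo-202 took 0, 20.8, 4.67 and 0% in AM6545 and 11.1, 3.15 and 33.2% in vehicle. The share of Synpo-202 was high where that of Synpo-211 was low, in AM6545 replicate D and vehicle replicate E. The longer Synpo-201, with 901 codons, held 10.6% ± 2.60 (SD, n = 4) and 11.2% ± 2.26 (SD, n = 3).

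In 6 of the 10 genes the same pair of libraries, AM6545 replicate B and vehicle replicate E, stood at one end of the 7, a pattern singled out after the values were seen. They were the 2 highest for Actb, Actg1 and Dbn1 and the 2 lowest for Cfl2, Pfn2 and Limk1. One library of the pair belongs to each group. How often this pair stood at one end over all genes was not counted, so the pattern cannot be called particular to these genes. Their total counts were 23422771 and 19174529, the third lowest and the lowest of the 7, and mitochondrially encoded genes took 5.07 and 6.11% of them. The part of depth or RNA quality in this pattern was not tested. Leaving out AM6545 replicate B moved the log2 fold change of Actg1 from 0.06 to -0.04 and that of Dbn1 from 0.06 to -0.03.

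The 10 genes have 67 transcripts in the transcript count table, of which 39 passed the filter and 9 had no counts in any library. Of the 38 that do not belong to Cotl1, 0 passed edgeR's quasi-likelihood test at an adjusted p under 0.05, against 0.0177% of all 33962 transcripts tested, and 2, both of Actb, were higher in AM6545 at an unadjusted p under 0.05, against 3.89% of all transcripts. Actb-201, the full-length form of 375 codons, took 73.6, 64.5, 60.7 and 64.4% of the Actb counts in AM6545 and 66.4, 72.3 and 82.6% in vehicle. Actb-207, of 295 codons, took 9.81, 14.6, 17.9 and 16% in AM6545 and 15, 11.2 and 5.49% in vehicle. Actb-208, annotated with an incomplete coding sequence of 265 codons, took 16.4, 20.7, 21.2 and 19.4% in AM6545 and 18.4, 16.3 and 11.7% in vehicle. The shares of the 3 overlapped between the groups. In normalised counts, scaled like CPM, the groups did not overlap for the 2 shorter forms, as for 5.2% of all transcripts in that direction. Actb-207 had 6057 ± 1050 (SD, n = 4) and 3913 ± 942 (SD, n = 3), a log2 fold change of 0.63 (SE 0.21, edgeR unadjusted p 0.0208, adjusted p 0.559). Actb-208 had 8134 ± 418 (SD, n = 4) and 5991 ± 527 (SD, n = 3), a log2 fold change of 0.44 (SE 0.09, edgeR unadjusted p 0.00144, adjusted p 0.458). DESeq2 called Actb-208, as it did 431 of all 33962 transcripts. Actb-201 itself differed by -0.12 (SE 0.26, edgeR adjusted p 0.926).

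For Actg1, both leading transcripts have 375 codons. Actg1-202 took 85.4, 72.0, 69.3 and 71.5% of the Actg1 counts in AM6545 and 58.1, 72.2 and 87.8% in vehicle. Actg1-204 took 14.5, 27.8, 30.4 and 28.2% in AM6545 and 41.6, 27.5 and 11.9% in vehicle. The spread was widest in vehicle, where replicate B and replicate E stood at the opposite ends of the 7 libraries. The levels of Actg1-202 and Actg1-204 differed by 0.10 (SE 0.28, edgeR adjusted p 0.945) and -0.00 (SE 0.34, edgeR adjusted p 0.999) on the log2 scale.

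Cfl1-202, which encodes the usual cofilin 1 of 166 codons, held 68.8% ± 1.83 (SD, n = 4) and 67.1% ± 3.6 (SD, n = 3) of the Cfl1 counts, and Cfl1-201, with 227 codons, held 31.1% ± 1.82 and 32.7% ± 3.64. Of the Cfl2 counts only 48.7% ± 2.20 in AM6545 and 47.8% ± 4.93 in vehicle fell on the coding Cfl2-201, and 41.9% ± 2.70 and 43.8% ± 4.53 fell on Cfl2-203, a transcript annotated without a coding sequence. Pfn1-201 held 99.1% ± 0.0545 and 99.0% ± 0.232 of Pfn1. For Pfn2, Pfn2-201 with 140 codons took 84.8, 74.7, 74.9 and 82.1% in AM6545 and 75.6, 74.9 and 71.3% in vehicle, and Pfn2-202 with 91 codons took most of the rest. The 2 highest shares of Pfn2-201 were in AM6545 replicates B and F, and the other 2 AM6545 libraries lay among the vehicle libraries. Pfn2-202 differed by -0.26 on the log2 scale (SE 0.25, edgeR adjusted p 0.821). Limk1-201 held 96.3% ± 2.16 and 98.1% ± 0.542 of Limk1, and Limk1-202 had counts in AM6545 replicate E alone, where it took 5.57%.

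**Figure D3:**
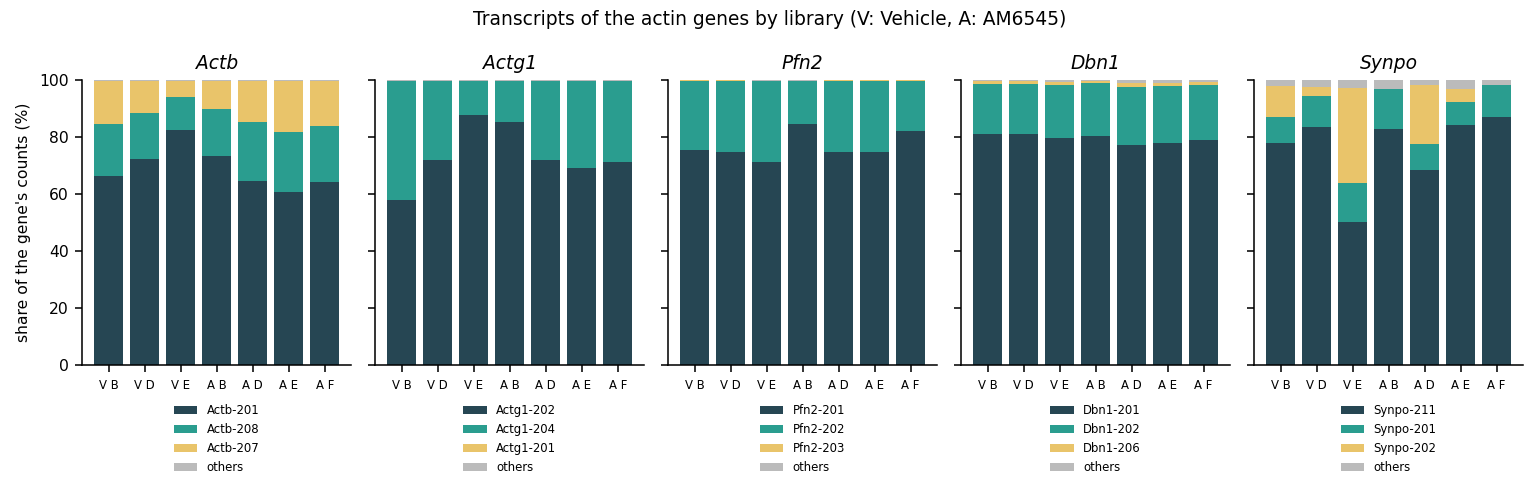
Share of each gene's estimated counts (%, 0 to 100) assigned to its 3 most abundant transcripts and to all others, in each of the 7 libraries (V, vehicle; A, AM6545; one bar a library). Dbn1-201 stays between 77.2 and 81.2% in the 7 libraries, whereas Actg1-202 runs from 58.1 to 87.8% and Synpo-211 from 50.4 to 87.0%.

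Cotl1 (ENSMUSG00000031827.14, chr8:119809222-119840544, minus strand) had 27.9, 30.0, 24.6 and 26.1 CPM in AM6545 and 58.2, 47.9 and 36.6 CPM in vehicle. Each AM6545 library was below each vehicle library, which is how the gene was picked, and 7.19% of all genes had the same order. The vehicle libraries differed more among themselves, with replicate B at the top and replicate E nearest to AM6545. The mean of AM6545, 27.2 ± 2.35 CPM (SD, n = 4), was 57.1% of that of vehicle, 47.6 ± 10.8 CPM (SD, n = 3), and the fitted log2 fold change was -0.81 (SE 0.14). It was -0.64 without vehicle replicate B, -0.96 without vehicle replicate E and -0.62 after correction for GC content and length, in a gene whose GC content of 59.0% was the highest of the members. Over 19 alternatives it ran from -0.96 to -0.57. All of its counts were on 1 transcript, Cotl1-201 with 142 codons, in each of the 7 libraries.

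Coactosin-like 1 is abundant in white blood cells, so the markers of microglia, the resident macrophages of the brain, are given beside it. In a bulk fraction such as this, fewer particles of a cell type and less RNA in each of them cannot be told apart. The 15 microglia markers were all tested, and 12 of 15 lay below 0, against 48.6% of all genes. Their median log2 fold change was -0.22. At an unadjusted p under 0.05, 8 were lower (against 8.7% of all genes), and 0 had an adjusted p under 0.05 by edgeR. DESeq2 called 5 of them lower, C1qa, C1qb, C1qc, Fcer1g and Tyrobp, and limma-voom called Tyrobp alone. Over all 14654 genes tested DESeq2 called 209 lower and limma-voom 262. DESeq2 gave no adjusted p for 4546 of these genes, which it could not call. Without vehicle replicate E edgeR called C1qc, Fcer1g and Tyrobp lower, beside 603 of all 14807 genes tested. The summed level of the 15 markers was 1362, 1494, 1474 and 1462 CPM in AM6545 and 1846, 1428 and 1797 CPM in vehicle. The sums overlapped, with vehicle replicate D below 3 of the AM6545 libraries. Per 100 CPM of these markers, Cotl1 stood at 2.05, 2.01, 1.67 and 1.79 CPM in AM6545 and at 3.15, 3.35 and 2.04 in vehicle. On this scale AM6545 replicate B and vehicle replicate E overlapped, and the means were 1.88 ± 0.183 (SD, n = 4) and 2.85 ± 0.709 (SD, n = 3). Per 100 CPM of neuron markers Cotl1 stood at 0.315 to 0.383 CPM in AM6545 and 0.506 to 0.808 in vehicle. The groups were also apart per hippocampus, astrocyte and oligodendrocyte markers. They overlapped per choroid plexus and red blood cell markers and met at 32.4 per endothelial and mural markers. The part of microglial RNA in the level of Cotl1 was not tested.

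**Figure D4:**
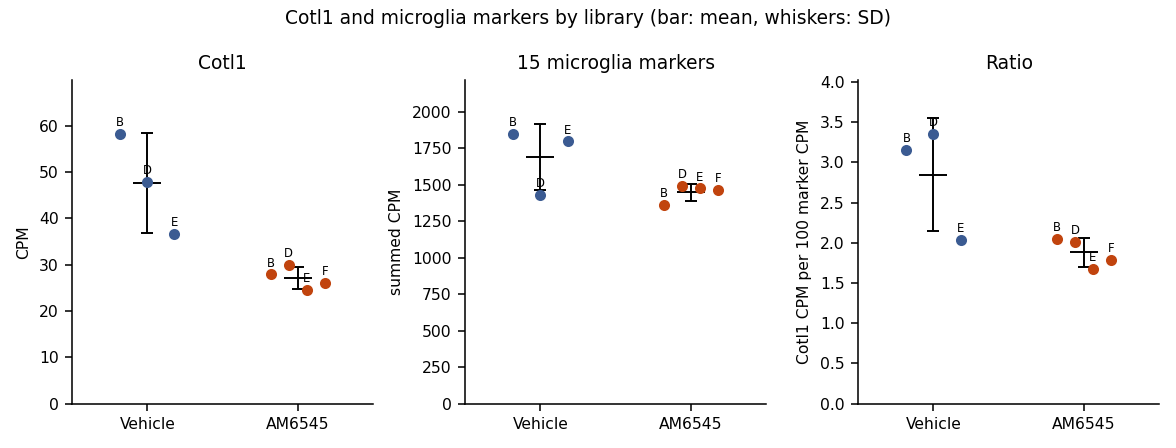
Cotl1 in CPM, the summed CPM of 15 microglia markers, and Cotl1 per 100 CPM of those markers, in each library (vehicle blue, AM6545 orange, letters name replicates, bars the mean, whiskers the SD, linear axes from 0). The groups are apart for Cotl1 but overlap for the marker sum, 1362 to 1494 against 1428 to 1846 CPM, and for the ratio, 1.67 to 2.05 against 2.04 to 3.35.

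Markers of cell types were read in each library. All libraries are labelled as the same fraction, so the presence of markers cannot tell it from whole tissue. The 8 neuron markers summed to 7569 to 7826 CPM in AM6545 and 7198 to 7230 CPM in vehicle, so that each AM6545 library lay above each vehicle library in the sum. Of the 8 markers 4 lay below 0, against 48.6% of all genes, and the median log2 fold change was 0.03. By edgeR 0 of the 8 had an unadjusted p under 0.05. The 5 markers of hippocampal neurons summed to 902 to 1061 and 971 to 1030 CPM. Of these 5, 3 lay below 0, against 48.6% of all genes, and the median log2 fold change was -0.13. By edgeR 1 of the 5 was lower at an unadjusted p under 0.05, against 8.7% of all genes. No marker of any list was at 0 in any library. RNA of other cells was present too, with oligodendrocyte markers at 17111 to 20218 and 16804 to 23042 CPM. The counts of the actin genes can therefore not be assigned to spines or to neurons. Astrocyte markers were at 4094 to 5135 and 4278 to 5546 CPM. Of the 8 astrocyte markers 4 lay below 0, against 48.6% of all genes. By edgeR 1 of these 8 was lower at an unadjusted p under 0.05, against 8.7% of all genes. Endothelial and mural markers were at 77.5 to 119 and 80.9 to 113 CPM. Choroid plexus markers were below 0 in 6 of 6, against 48.6% of all genes, with a median of -0.31. Of these 6, 0 had an unadjusted p under 0.05 by edgeR. They summed to 423 to 2018 and 1602 to 2834 CPM, the lowest in AM6545 replicate F. Red blood cell markers were at 201 to 529 and 291 to 590 CPM. Total counts ran from 19174529 to 25894586, and mitochondrially encoded genes took 5.07 to 6.66% in AM6545 and 6.11 to 9.83% in vehicle, the highest in vehicle replicate B.

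The wider actin machinery was followed in 7 lists of 130 names, of which 125 were tested. By edgeR 0 passed at an adjusted p under 0.05, and the smallest adjusted p was 0.199. DESeq2 called 6 of them, 2 higher and 4 lower, and limma-voom called 7, 2 higher and 5 lower. Over all 14654 genes tested DESeq2 called 247, with no adjusted p for 4546, and limma-voom 394. Leaving out vehicle replicate E raised edgeR's calls in the lists to 15, 8 higher and 7 lower. In that setting edgeR called 944 of all 14807 genes tested. Among the 15 were Abi1, Eps8, Gmfb, Add3 and Myo5b (higher) and Daam2, Diaph1, Tmsb10 and Ppp1r9b (lower). At an unadjusted p under 0.05, 14 were higher (11.2%, against 5.86% of all genes) and 12 were lower (9.6%, against 8.7%). The median log2 fold change over the 125 was 0.00, beside 0.01 for all genes. The genes named next are among those with the smallest unadjusted p in their list and direction, so their values are extremes by choice.

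Branched filaments are made by the Arp2/3 complex when the WAVE complex or N-WASP switches it on. Of 22 genes in this list 6 were higher and 2 lower at an unadjusted p under 0.05, against 5.86% and 8.7% of all genes. The median log2 fold change of the list was 0.07. Nckap1, a subunit of the WAVE complex, averaged 533 ± 35.3 CPM with AM6545 (SD, n = 4) and 424 ± 45.0 with vehicle (SD, n = 3), a log2 fold change of 0.33 (SE 0.11, edgeR adjusted p 0.235). Abi1, another subunit, differed by 0.31 (SE 0.11, edgeR adjusted p 0.265), or by 0.20 without vehicle replicate B. Wasf2 and Arpc1b lay the other way. Wasf2, encoding a widely expressed WAVE protein, was at 8.46 ± 0.438 and 11.5 ± 0.394 CPM, a log2 fold change of -0.44 (SE 0.11, edgeR adjusted p 0.199). Arpc1b, the Arp2/3 subunit typical of blood cells, was at 53.1 ± 2.70 and 67.9 ± 4.10 CPM, a log2 fold change of -0.35 (SE 0.09, edgeR adjusted p 0.199). The groups did not overlap for any of these 4, which were picked for their small p. Over all genes the groups did not overlap for 6.63% with AM6545 higher and 7.19% with AM6545 lower. The differences of Nckap1 and Abi1 were 0.19 and 0.11 after correction for GC content and length, and those of Wasf2 and Arpc1b were -0.38 and -0.26.

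Formins and related factors build unbranched filaments. Here 0 of 15 were higher and 2 lower at an unadjusted p under 0.05, against 5.86% and 8.7% of all genes. Of the 15, 10 lay below 0, against 48.6% of all genes. The median was -0.13, or -0.05 after correction for GC content and length. The formin gene Daam2 had means of 8.32 ± 0.891 CPM (SD, n = 4) and 13.0 ± 1.84 CPM (SD, n = 3), a log2 fold change of -0.64 (SE 0.14, edgeR adjusted p 0.199). Diaph1, encoding another formin, differed by -0.40 (SE 0.14, edgeR adjusted p 0.261), or by -0.21 without vehicle replicate B. The smallest p above 0 were those of Fmnl3 (log2 fold change 0.29) and Spire1 (0.18), with adjusted p of 0.387 and 0.412 by edgeR. Fmnl3 was at 0.19 without vehicle replicate B and Spire1 at 0.10 after correction for GC content and length.

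Among 22 genes for severing, capping and monomer-binding proteins, 4 were higher and 1 lower at an unadjusted p under 0.05. Over all genes these shares were 5.86% and 8.7%. Of the 22, 15 lay above 0 and 7 below, where 48.6% of all genes lay below. The median was 0.12, or 0.04 after correction for GC content and length. Eps8, encoding a protein that caps and bundles filaments, averaged 45.2 ± 2.27 CPM with AM6545 (SD, n = 4) and 32.9 ± 5.82 with vehicle (SD, n = 3), a log2 fold change of 0.46 (SE 0.12, edgeR adjusted p 0.199). Gmfb, encoding a factor that takes branches apart, was at 208 ± 15.2 and 163 ± 18 CPM, a log2 fold change of 0.36 (SE 0.11, edgeR adjusted p 0.218) that was 0.13 after correction for GC content and length. Tmsb10 encodes thymosin beta 10, which holds actin monomers. Tmsb10 was at 18.9 ± 1.09 and 33.5 ± 11.3 CPM, a log2 fold change of -0.83 (SE 0.18, edgeR adjusted p 0.199), and this was -0.52 without vehicle replicate B and -0.30 after correction for GC content and length. Its far more abundant relative Tmsb4x, at 1742 ± 132 and 2072 ± 367 CPM, differed by -0.25 (SE 0.13, edgeR adjusted p 0.39), or by -0.10 without vehicle replicate B and -0.04 after correction for GC content and length. The gene farthest from 0, named after its value was seen, was the sparsely counted Scin at 0.894 ± 0.284 and 0.445 ± 0.187 CPM, with a log2 fold change of 1.05 (SE 0.40, edgeR adjusted p 0.273).

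In the list of 23 cross-linkers and spine scaffolds 1 was higher and 2 lower at an unadjusted p under 0.05. Over all genes these shares were 5.86% and 8.7%. The median log2 fold change of the list was -0.02. Ppp1r9b encodes spinophilin, which bundles actin in spines and brings protein phosphatase 1 to them. Ppp1r9b averaged 121 ± 19.9 CPM with AM6545 (SD, n = 4) and 222 ± 112 with vehicle (SD, n = 3), a log2 fold change of -0.87 (SE 0.30, edgeR adjusted p 0.266) with overlapping groups. The value was -0.41 without vehicle replicate B and -1.16 without vehicle replicate E, where edgeR called it. Actn2, encoding an alpha-actinin of spines and muscle, and Add3, encoding an adducin, differed by 0.40 (SE 0.17, edgeR adjusted p 0.315) and 0.31 (SE 0.16, edgeR adjusted p 0.39). For Add3 the value was 0.17 without vehicle replicate B, 0.17 after correction for GC content and length, and 0.53 without vehicle replicate E, where edgeR called it.

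Among 13 myosins and light chains 1 was higher and 3 lower at an unadjusted p under 0.05, against 5.86% and 8.7% of all genes. The median log2 fold change of the list was 0.00. Myo5b, encoding a motor that carries recycling endosomes into spines, averaged 99.5 ± 7.32 CPM with AM6545 (SD, n = 4) and 78.8 ± 10.3 with vehicle (SD, n = 3), a log2 fold change of 0.34 (SE 0.11, edgeR adjusted p 0.245). Myo6, encoding a motor that moves toward the minus end of filaments, differed by 0.20 (SE 0.13, edgeR adjusted p 0.486), or by 0.10 without vehicle replicate B and 0.33 without vehicle replicate E. The light chain genes Myl12a and Myl6 differed by -0.27 (SE 0.09, edgeR adjusted p 0.243) and -0.29 (SE 0.10, edgeR adjusted p 0.245), and after correction for GC content and length by -0.18 and 0.04. Of the 4 muscle-type actins 2 were tested. Acta2 differed by 0.98 (SE 0.48, edgeR adjusted p 0.39) and Acta1 by -0.37 (SE 0.16, edgeR adjusted p 0.32), or -0.20 after correction for GC content and length, at levels of 4.12 to 11.6 CPM in the group means.

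**Figure D5:**
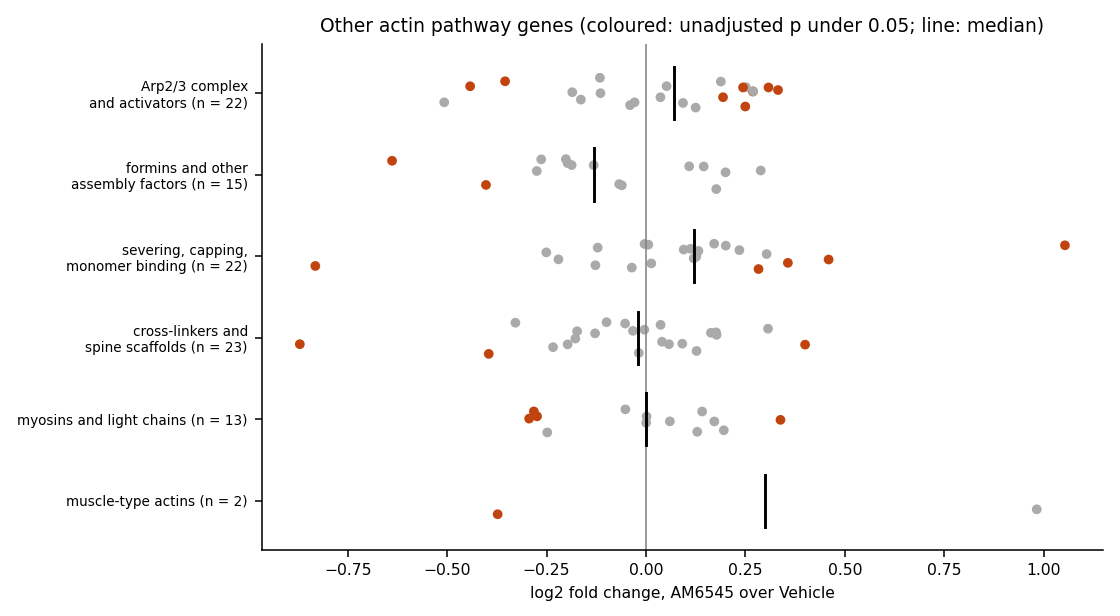
Log2 fold change of AM6545 over vehicle for the tested genes of 6 lists of the actin machinery, one dot a gene, coloured where the unadjusted p is under 0.05, with the median of each list as a black line. Medians run from -0.13 for the formins to 0.12 for severing, capping and monomer-binding proteins, apart from the 2 muscle-type actins at 0.30, and 0 of the genes shown passed the adjusted threshold.

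Among 9455 genes with a mean of at least 10 CPM, the ones whose log2 level ran closest to that of Cotl1 over the 7 libraries were Dynlt1b (Pearson r 0.987), Adarb1 (0.985), Klf13 (0.984), Mrps21 (0.980) and Agpat1 (0.976). Those closest to Actb were Srfbp1 (0.989), Nup93 (0.987), Zpr1 (0.986), Dis3l2 (0.984) and Arhgef1 (0.980). These are the highest of many values and a description of 7 libraries, which share the difference between the groups and the differences between single libraries. The 5 genes close to Cotl1 were lower in AM6545, with log2 fold changes from -0.57 to -0.39, and the 5 close to Actb had log2 fold changes from 0.04 to 0.17.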

How the data were processed

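The authors deposited a gene and a transcript table of estimated counts, unscaled (of the nonzero gene values 83.5% have decimals). Salmon 1.5.2 and build mm10 are named in the submitters' processing notes. The annotation release and any use of strand are not given in the sources used here. Names, lengths and coordinates came from GENCODE M21 (22148 of 22248 genes and 101527 of 102392 transcripts matched, version numbers ignored).

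Counts were rounded and tested by edgeR 4.0.16 (quasi-likelihood, robust, TMM scaling, filterByExpr, R 4.3.3) over all genes or transcripts, with Benjamini-Hochberg adjustment and no covariates. Standard errors were derived from the fold change and its F statistic. Library totals and SDs set the precision, and the median biological coefficient of variation was 12.4%. The 3 within-pair shares were compared by two-sided exact permutation over the 35 ways of dividing 7 libraries. Alternatives included DESeq2 1.42.0, limma-voom (limma 3.58.1), other scalings and filters, a lowess correction (span 0.3) for GC content and length, a replicate block and leaving out each library. The code was tested on simulated data.

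Named genes were all members, up to 2 genes per direction and list with the smallest unadjusted p, and the 5 genes most correlated with Cotl1 and with Actb among those with at least 10 CPM and no model name. Members, lists and tests were chosen with earlier results of these data known. Of the 130 listed names, 2 matched no gene and 3 genes (Ssh3, Actc1 and Actg2) were filtered out. Where 2 genes carry 1 symbol (Myl12b), the first was used. Another list and another gene entered these counts but are not reported here.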

Additional observations from a re-analysis of the deposited data

Results flagged for a closer look

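Of 39 values checked in the AM6545 group of 4 libraries, 3 had 1 library standing far from the rest, where chance alone gives about 1.95. All 3 concern AM6545 replicate B. Pfn2, encoding the profilin made mainly in neurons, was at 435 CPM in that library and at 519 to 527 CPM in the other 3. Actg1-202, the leading transcript of gamma-actin, took 85.4% of the Actg1 counts there and 69.3 to 72.0% in the others. Actg1-204 took 14.5% there and 27.8 to 30.4% in the others, so these last values are 2 sides of one difference. Vehicle replicate E stood on the same side as AM6545 replicate B in each case, at 407 CPM, 87.8% and 11.9%. What this pair of libraries shares was not tested.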

How the results depend on the processing

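The 9 members chosen by function passed the threshold in 0 of 19 alternatives each, and 17 of their values changed sign. Cotl1, which is given no test, stayed below 0, from -0.96 to -0.57, the last with GC and length correction and replicate block and the only one that moved by more than the spread between libraries. The cause was not tested. With all libraries, the sign changes were those of Cfl2 with limma-voom (-0.01), GC and length correction (-0.10) and that with the replicate block (-0.11). They were also Pfn1 (0.09 and 0.07) and Pfn2 (-0.01 and -0.01) with those 2 corrections, Limk1 with limma-voom (-0.01) and Synpo with GC and length correction (0.03). The others came from leaving out 1 library, which gave -0.12 to 0.28 for Actb, -0.04 to 0.20 for Actg1, -0.03 to 0.13 for Cfl2, -0.09 to 0.12 for Pfn2, -0.03 to 0.15 for Dbn1, -0.08 to 0.06 for Synpo and -2.01 to 1.85, -1.13 to -0.37 and -5.92 to -3.02 points for the Actb, Cfl1 and Pfn1 shares. Vehicle replicate B gave the lowest Actb values and vehicle replicate E the highest. Over all genes edgeR called 1, DESeq2 247 (4546 had no adjusted p), limma-voom 394, a mean of at least 50 counts 2 and GC and length correction 0 (988 at an unadjusted p under 0.05). Leaving out 1 library gave 0 to 944. The 0 came without AM6545 replicate E (1677 unadjusted) or vehicle replicate B (954 unadjusted), and the 944 without vehicle replicate E. Of transcripts edgeR called 6, DESeq2 431 and a mean of at least 50 counts 10, and leaving out 1 library gave 1 to 14. Scaling by total counts shifted the split at an unadjusted p under 0.05 from 859 higher and 1275 lower to 1104 and 943, and the median of all genes from 0.008 to 0.043. Same-lettered libraries deviated from their group means with correlations of -0.26 (B), -0.13 (D) and -0.18 (E). The labels do not say what the letters mean. Each correlation compares 1 library of each group, so these values cannot decide whether the letters pair samples. With a replicate block edgeR called 1 gene, higher in AM6545, and 0 transcripts (1597 unadjusted). The 1 gene called without the block was lower in AM6545. No member's call changed. In blocked pairs, chosen after seeing the data, the shares differed by 0.337, -0.94 and -4.64 points for Actb, Cfl1 and Pfn1.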
